A study of Homo sapiens with 10 samples.

Results

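Y RNAs, vault RNAs and the RNA parts of RNase MRP and RNase P are short noncoding RNAs made by RNA polymerase III. The 10 genes considered were the Y RNA genes RNY1, RNY3, RNY4 and RNY5, the vault RNA genes VTRNA1-1, VTRNA1-2, VTRNA1-3 and VTRNA2-1, and RMRP and RPPH1, chosen by symbol. Of the 10, 9 had a row among the 94946 entries of the count table, and RNY5 was not analysed here. RNY1, RNY3, VTRNA1-1 and VTRNA1-2 had counts in all 10 libraries, and the other 5 genes with a row had a count of 0 in every library.

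The study sequenced total RNA of extracellular vesicles (EVs) released by PC3, a human line of prostate cancer cells from a bone metastasis, and of the cells themselves. The vesicle groups, EV 2.8K, EV 10K and EV 100K, are pellets of 3 spins and carry the speed given in the labels, where it has no unit. Every pellet is represented by 3 libraries, named by their set numbers as replicates 1 to 3, and the reference for vesicles as a whole is 1 library of cells from which no vesicles were isolated. All groups come from PC3 cells grown in Dulbecco's medium with fetal bovine serum, and the labels name no genetic change and no treatment. The RNA, isolated with Trizol, went into a stranded total RNA kit for low input that does not select for poly(A) tails. The cell library has no replicate. No label states that different sets are different cultures, so the p-values here rest on a spread between libraries that may be purely technical.

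Total counts lay between 5424964 and 28735081 per library, the cell library being the deepest, and with no count an RNA could still make up 3 counts of a library, or 0.104 to 0.553 counts per 1000000. Libraries of 1 pellet correlated across genes at Spearman 0.862 to 0.964. CPM is the count per 1000000 counts of the library, here scaled by the trimmed mean of M-values (TMM) method. The keratins KRT8, KRT18 and KRT19, markers of the epithelial cells named in the labels, were at 508, 392 and 465 CPM in the cell library. The epithelial markers EPCAM and CDH1 were at 9.70 and 0.290 CPM there, and the mesenchymal markers VIM and CD44 at 401 and 303 CPM. Human haemoglobin, albumin and apolipoprotein A1 genes, as markers of blood and serum, summed to 0 to 2.77 CPM over the 10 libraries, and the leukocyte markers to 0 to 1.07 CPM. These human genes cannot show whether RNA of the fetal bovine serum in the medium was present. The fibroblast markers summed to 14.4 to 43.4 CPM in EV 2.8K and to 14.5 CPM in the cells.

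Y RNAs fold into a stem of their paired ends and a loop. The Ro60 protein binds the stem and the La protein the uridine tail, and Y RNAs take part in DNA replication and in RNA quality control. They and their fragments are known as abundant small RNAs of vesicles and body fluids. Vault RNAs bind the vault, a large hollow ribonucleoprotein particle built of major vault protein, although most vault RNA in a cell is free of it. VTRNA1-1 is known to bind the autophagy receptor p62. RMRP is the RNA of RNase MRP, which cuts ribosomal RNA precursors, and RPPH1 is the catalytic RNA of RNase P, which trims the 5′ ends of transfer RNAs.

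The Y RNA genes RNY1 and RNY4 lie on chromosome 7, in GENCODE release 29 on GRCh38, at chr7:148987136-148987248 on the minus strand (RNY1) and chr7:148963315-148963410 on the plus strand (RNY4). Each is a single-exon gene that overlaps no other annotated gene. The nearest gene to RNY1 is the noncoding gene GHET1, 279 bases away. Their RNAs are shown because RNY1 was counted in every library and RNY4 in none. The capitals mark the first 11 and the last 4 bases, which both sequences have in common, and the last bases are the run of T at which RNA polymerase III stops.
RNY1: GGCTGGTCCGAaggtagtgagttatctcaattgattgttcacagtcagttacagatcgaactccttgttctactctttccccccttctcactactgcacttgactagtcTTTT
RNY4: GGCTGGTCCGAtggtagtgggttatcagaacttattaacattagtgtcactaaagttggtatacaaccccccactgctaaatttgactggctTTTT
Over the aligned length, RNY1 (113 bases) and RNY4 (96 bases) were identical at 63.7% of positions.

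The vault RNA genes of the VTRNA1 cluster lie on chromosome 5, all on the plus strand, at chr5:140711275-140711373 (VTRNA1-1), chr5:140718925-140719013 (VTRNA1-2) and chr5:140726158-140726246 (VTRNA1-3). None overlaps another annotated gene. They are shown because 2 close relatives were counted while the third had no count. Here the capitals mark the first 29 and the last 2 bases, which all 3 share.
VTRNA1-1: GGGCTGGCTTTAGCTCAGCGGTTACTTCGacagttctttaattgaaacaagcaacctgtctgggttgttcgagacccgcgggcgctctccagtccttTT
VTRNA1-2: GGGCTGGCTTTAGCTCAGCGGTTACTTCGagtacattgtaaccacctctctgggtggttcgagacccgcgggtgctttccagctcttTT
VTRNA1-3: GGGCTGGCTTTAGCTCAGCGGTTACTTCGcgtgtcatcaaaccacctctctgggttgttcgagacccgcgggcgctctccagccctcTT
VTRNA1-2 and VTRNA1-3 (89 bases each) were identical at 87.8% of aligned positions, a closer match than VTRNA1-1 (99 bases) with VTRNA1-2 (81.8%) or VTRNA1-3 (82.8%). Their differences lie between the shared start and the last bases.

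How the authors' counting treated reads that map to several places, and which strand setting it used, are steps that the sources used here do not state, so the counts of genes with copies are uncertain. This applies unequally to the genes. Of the 30-base words of RNY3, 100% also occur in transcripts of other GENCODE genes (152 of them, mostly unnamed Y RNA copies), and for RNY1 the share is 96.4% (58 genes) and for RNY4 91.0% (38 genes). For VTRNA1-1 it is 11.4%, for VTRNA1-2 1.67% and for VTRNA1-3 8.33%. The Y RNA counts are therefore the less certain ones, and the vault RNA counts rest on sequence that is largely their own.

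The other 3 genes that had no count each overlap a second annotated gene on the same strand. VTRNA2-1 (chr5:136080470-136080597, minus strand) overlaps the unnamed vault RNA entry RF00006, which also had a count of 0 in every library, and shares 72.7% of its 30-base words with it. RMRP (chr9:35657754-35658017, minus strand) and RPPH1 (chr14:20343075-20343407, minus strand) are each contained, at 100% of their words, in a longer annotated transcript of the same locus, a long noncoding RNA also named RMRP for the first and AL355075.4 for the second. Neither of these longer genes was analysed here. RN7SL1, RN7SL2, RN7SL3, RN7SK, BCYRN1 and RNA5S1, other RNA polymerase III transcripts, of which most are abundant in human cells, were likewise listed at 0 in all 10 libraries. No statement about the amount of these RNAs, or of RNY4, VTRNA1-3, VTRNA2-1, RMRP and RPPH1, can be drawn from such counts, since RNAs that cells are known to use are among them.

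On the TMM-scaled CPM, each of the 4 RNAs with counts was at a higher level in all 9 EV libraries than in the cell library. Without this scaling the exception was VTRNA1-2 in EV 2.8K replicate 1, at 5.59 counts per 1000000 beside 7.27 in the cells. How many of all genes were likewise above the lone cell library in every EV library was not counted, so this is a description only. Of the 4 RNAs, RNY1 and VTRNA1-1 reached the highest means, in the 2 faster pellets. Raw counts are given first, since they are low. RNY1 had 164, 139 and 127 counts in EV 2.8K (replicates 1, 2 and 3), 1639, 417 and 337 in EV 10K, 849, 578 and 638 in EV 100K and 100 in the cells. Although the cell library is the deepest, its RNY1 count was the lowest of the 10. Relative to depth, RNY1 was at 10.6 ± 2.09 CPM in EV 2.8K, 88.8 ± 81.4 CPM in EV 10K and 109 ± 9.19 CPM in EV 100K (SD, n = 3 each), against 2.90 CPM in the cells. The 3 EV 100K libraries lay within 101 to 119 CPM, whereas EV 10K ran from 31.9 to 182 CPM.

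RNY3, the second Y RNA, had 181, 122 and 191 counts in EV 2.8K, 526, 345 and 145 in EV 10K, 207, 192 and 171 in EV 100K and 112 in the cells. Its level was 12.6 ± 4.72 CPM in EV 2.8K, 38.5 ± 22.7 CPM in EV 10K, 30.5 ± 4.20 CPM in EV 100K (SD, n = 3 each) and 3.24 CPM in the cells. In EV 2.8K it stood at the level of RNY1, and in EV 100K it was below RNY1 in every library. The lowest EV 10K library, replicate 3 at 13.7 CPM, fell within the EV 2.8K range of 7.36 to 16.5 CPM.

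VTRNA1-1, the vault RNA that binds p62, had 234, 167 and 57 counts in EV 2.8K, 2687, 509 and 355 in EV 10K, 784, 911 and 549 in EV 100K and 39 in the cells, where the exact Poisson interval of the count was 27.7 to 53.3. This corresponded to 11.0 ± 6.51 CPM in EV 2.8K, 132 ± 145 CPM in EV 10K, 121 ± 41.1 CPM in EV 100K (SD, n = 3 each) and 1.13 CPM in the cells. It was the lowest of the 4 RNAs in the cells and had the highest mean of the 4 in both faster pellets. In EV 100K that rank rested on replicate 2, with 167 CPM of VTRNA1-1 beside 106 of RNY1. VTRNA1-1 was below RNY1 in EV 100K replicates 1 (110 against 119 CPM) and 3 (87.2 against 101 CPM). VTRNA1-2, its neighbour in the cluster, had 83, 359 and 100 counts in EV 2.8K, 731, 322 and 131 in EV 10K, 536, 319 and 299 in EV 100K and 209 in the cells, with a Poisson interval of 182 to 239. It stood at 12.2 ± 8.26 CPM in EV 2.8K, 44.7 ± 34.6 CPM in EV 10K, 60.4 ± 13.9 CPM in EV 100K (SD, n = 3 each) and 6.05 CPM in the cells. In the cells it was the highest of the 4. Intervals and floors cover counting error only.

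**Figure D1:**
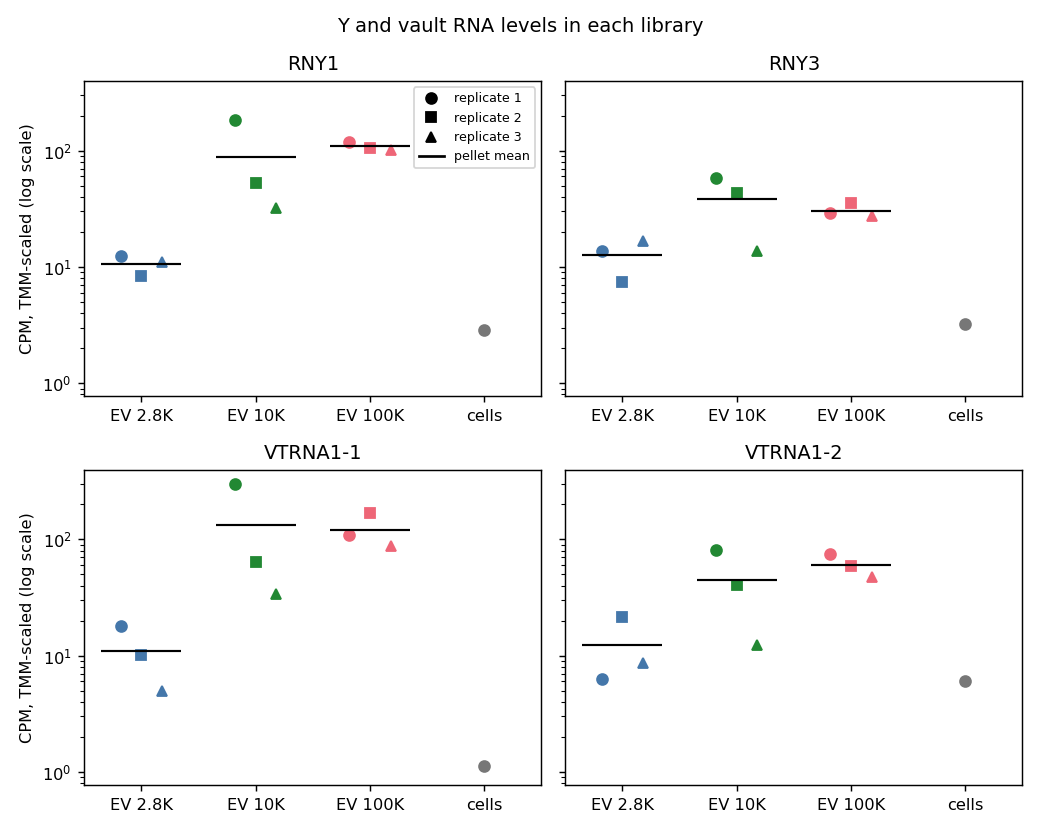
Level of each RNA in every library, as TMM-scaled CPM on a log axis, by pellet and for the cells; symbols mark the replicate and lines the pellet mean. On this scale every EV library lies above the cell library for each RNA (without TMM scaling, VTRNA1-2 in EV 2.8K replicate 1 lies below it), and the EV 10K libraries are the most spread out, with replicate 1 on top. How many of all genes lie above the cell library in every EV library was not counted.

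The EV 10K libraries differed among themselves more than those of EV 100K did. The coefficient of variation of CPM in EV 10K was 0.917 for RNY1, 0.591 for RNY3, 1.10 for VTRNA1-1 and 0.774 for VTRNA1-2, and in EV 100K it was 0.0845, 0.138, 0.338 and 0.231 in the same order. EV 10K replicate 1 was the highest EV 10K library for each of the 4 RNAs and replicate 3 the lowest. The 4 RNAs together had 662, 787 and 475 counts in EV 2.8K, 5583, 1593 and 968 in EV 10K, 2376, 2000 and 1657 in EV 100K and 460 in the cells. As a share of all counts, these sums were 0.00446 to 0.00525% in EV 2.8K, 0.00891 to 0.0575% in EV 10K, 0.0250 to 0.0369% in EV 100K and 0.00160% in the cells. Results for EV 10K against EV 2.8K and EV 100K are therefore also given without its replicate 1. Total counts were 10288246 to 14977955 in EV 2.8K, 7933251 to 10864958 in EV 10K and 5424964 to 8083438 in EV 100K. The summed epithelial markers were at 1748 to 2105 CPM in EV 2.8K, 1499.9 to 1931 CPM in EV 10K and 795 to 891 CPM in EV 100K, and the part of depth or of this sum in the results was not tested.

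Per kilobase of RNA, the order of the 4 RNAs differed between groups. This scale adjusts for length only. It leaves in place the uncertainty of the Y RNA counts from sequence shared with other genes. Whether the RNAs were recovered equally well was not tested. The order of Y RNAs against vault RNAs within a group is therefore a description of counts, not of amounts of RNA. In EV 100K the levels were 1226 ± 415 CPM per kilobase for VTRNA1-1, 963 ± 81.4 for RNY1, 678 ± 157 for VTRNA1-2 and 299 ± 41.2 for RNY3 (SD, n = 3 each). The ranges of VTRNA1-1 and RNY1 overlapped, whereas RNY1 was above VTRNA1-2, and VTRNA1-2 above RNY3, in all 3 libraries. EV 10K had the same first 2 places, at 1334 ± 1465 for VTRNA1-1 and 786 ± 721 for RNY1, with VTRNA1-2 at 502 ± 389 and RNY3 at 378 ± 223, all within their spread. In EV 2.8K the 4 means were close to one another, at 94.1 ± 18.5 for RNY1, 111 ± 65.8 for VTRNA1-1, 123 ± 46.3 for RNY3 and 137 ± 92.8 for VTRNA1-2. The cells had 68.0 CPM per kilobase of VTRNA1-2, 31.8 of RNY3, 25.6 of RNY1 and 11.4 of VTRNA1-1, so VTRNA1-1 was last there and first in both faster pellets.

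Differences between pellets were tested with edgeR's quasi-likelihood test on the 9 EV libraries, over 15525 genes, with p-values adjusted by the Benjamini-Hochberg method over all of them and a threshold of 0.05. The SE given with a log2 fold change was derived from this test, as the size of the change over the square root of its F statistic. It is therefore no measure of spread separate from the p-value. In EV 100K against EV 2.8K, RNY1 rose by a log2 fold change of 3.35 (SE 0.51, adjusted p = 0.000166), VTRNA1-1 by 3.46 (SE 0.68, adjusted p = 0.00135) and VTRNA1-2 by 2.29 (SE 0.57, adjusted p = 0.00686). RNY3 did not pass, at 1.27 (SE 0.48, adjusted p = 0.0609). Its 3 EV 100K libraries all lay above its EV 2.8K libraries, but the share of all genes separated in this way was not counted. Thus 3 of the 4 RNAs rose, where 12.0% of all genes tested rose and 25.8% changed in either direction. The median log2 fold change of the 4 was 2.82, beside -0.064 over all genes. In a pellet, fewer vesicles that carry an RNA and less of it per vesicle cannot be told apart.

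The calls for RNY1 and VTRNA1-2 in EV 100K against EV 2.8K held under all 16 alternatives tried, with adjusted p up to 0.00325 and 0.0367. The VTRNA1-1 call was lost when EV 100K replicate 1 (adjusted p = 0.0523), 2 (0.0699) or 3 (0.0595) was left out and without a filter on low counts (0.0864), while its log2 fold change stayed at 3.16 or above. RNY3 passed without EV 2.8K replicate 3 (adjusted p = 0.0443) or EV 10K replicate 3 (0.0191), without the filter (0.0272), with all 10 libraries (0.0339) or only the 6 libraries compared (0.0407) in the fit, and with DESeq2 (0.0412).

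EV 10K against EV 2.8K gave similar fold changes with less certain calls. RNY1 rose by 3.07 (SE 0.50, adjusted p = 0.00164) and VTRNA1-1 by 3.59 (SE 0.68, adjusted p = 0.00482) on the log2 scale. RNY3 at 1.62 (SE 0.48, adjusted p = 0.0550) and VTRNA1-2 at 1.87 (SE 0.57, adjusted p = 0.0628) did not pass, and their EV 10K and EV 2.8K ranges overlapped. So 2 of the 4 rose, where 4.15% of all genes tested rose and 6.38% changed. Without EV 10K replicate 1 the log2 fold change was 1.99 for RNY1 (adjusted p = 0.00145) and 2.15 for VTRNA1-1 (0.0159), and it was 1.18 for RNY3 (0.253) and 1.11 for VTRNA1-2 (0.301).

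Other libraries also decided calls in EV 10K against EV 2.8K. RNY1 passed under all 16 alternatives (adjusted p up to 0.0205). VTRNA1-1 no longer passed without EV 2.8K replicate 1, 2 or 3 (adjusted p = 0.0622, 0.0906 and 0.0544), without EV 100K replicate 1, 2 or 3 (0.0952, 0.0981 and 0.123), or without the filter (0.162), while its log2 fold change in these settings was 3.29 to 4.13 and its SE 0.87 to 1.04. Without EV 10K replicate 3, the lowest EV 10K library, all 4 RNAs passed, RNY3 with a log2 fold change of 2.08 (adjusted p = 0.00868) and VTRNA1-2 with 2.37 (0.00850). RNY3 also passed without EV 2.8K replicate 1 (0.0494) or 3 (0.0446), and VTRNA1-2 without EV 2.8K replicate 2 (0.0213). Without the filter both passed (0.00817 for RNY3 and 8.61e-05 for VTRNA1-2).

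Between the 2 faster pellets no difference was called. The log2 fold changes of EV 100K over EV 10K were 0.28 for RNY1 (SE 0.46, adjusted p = 0.832), -0.35 for RNY3 (SE 0.47, adjusted p = 0.782), -0.13 for VTRNA1-1 (SE 0.61, adjusted p = 0.952) and 0.42 for VTRNA1-2 (SE 0.55, adjusted p = 0.764) in edgeR's quasi-likelihood test. That makes 0 of 4, where 10.9% of all genes tested changed, and 0 of 4 also with DESeq2, and 0 of 4 at an unadjusted p under 0.05 in edgeR. The EV 10K libraries spread on both sides of EV 100K for each RNA. Without EV 10K replicate 1, RNY1 was higher in EV 100K (log2 fold change 1.37, adjusted p = 0.0140), so this result rests on that library. A test for any difference among the 3 pellets passed for RNY1 (adjusted p = 0.000507), VTRNA1-1 (0.00282), VTRNA1-2 (0.0205) and RNY3 (0.0499), where 23.3% of all genes passed.

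The joint calls other than that of RNY1 depended on single libraries. RNY3 lost its call without EV 2.8K replicate 2 (adjusted p = 0.147), EV 10K replicate 1 (0.133) or 2 (0.0902), and without any EV 100K library (0.0759, 0.0788 and 0.0657 for replicates 1, 2 and 3). VTRNA1-1 lost it without EV 2.8K replicate 1 (0.0534) or 2 (0.0818), without any EV 100K library (0.0914, 0.0942 and 0.113 for replicates 1, 2 and 3) and without the filter (0.154). VTRNA1-2 lost it without EV 2.8K replicate 1 (0.0548) or 3 (0.0924) and without the first (0.0605) or second (0.0530) EV 100K replicate. RNY1 passed in all 15 alternatives, with adjusted p up to 0.00941.

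**Figure D2:**
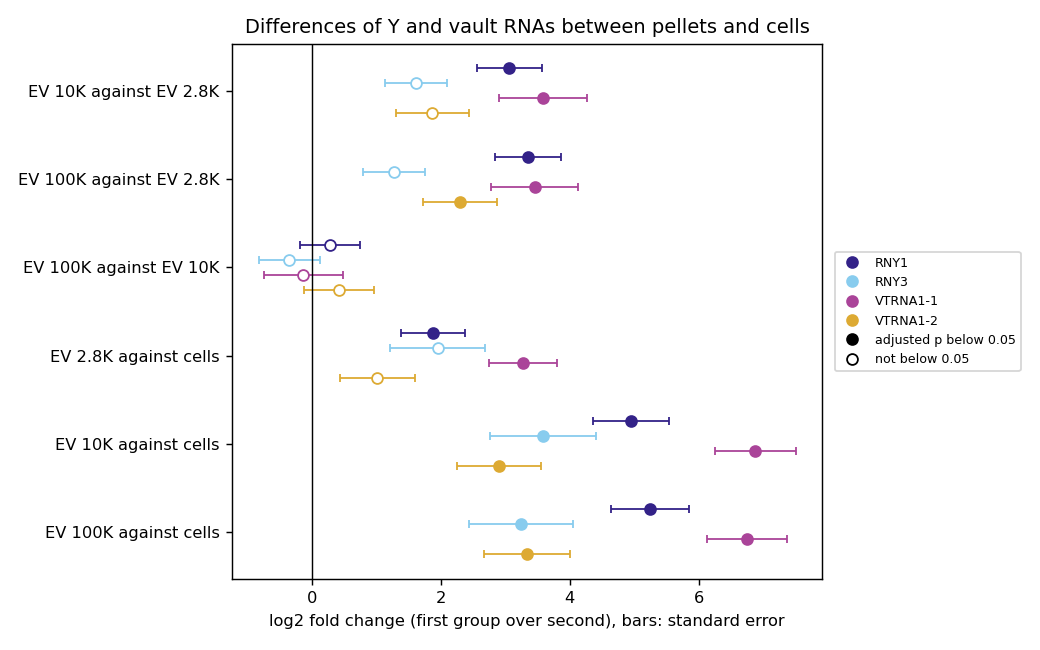
Log2 fold changes of the 4 RNAs in the 6 pairwise comparisons, the first-named group over the second. Bars are the SE derived from the test, the size of the change over the square root of its F statistic. Filled points have an edgeR adjusted p below 0.05. Points of EV 100K against EV 10K scatter around 0 (-0.35 to 0.42). Within each RNA, the points of the 2 faster pellets against the cells lie farthest to the right.

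Each pellet was then set against the cell library, in a fit of all 10 libraries over 22370 genes in which the lone cell library is assumed to vary like the pellets. In EV 100K against cells, the log2 fold changes were 5.24 for RNY1 (SE 0.60, adjusted p = 5.8e-16), 3.24 for RNY3 (SE 0.80, adjusted p = 0.00105), 6.75 for VTRNA1-1 (SE 0.62, adjusted p = 8.06e-25) and 3.33 for VTRNA1-2 (SE 0.67, adjusted p = 2.07e-05). All 4 passed, where 4.59% of all genes tested rose and 10.0% changed. EV 10K against cells gave 4.95 for RNY1 (SE 0.59, adjusted p = 2.12e-14), 3.58 for RNY3 (SE 0.82, adjusted p = 0.00061), 6.88 for VTRNA1-1 (SE 0.63, adjusted p = 4.38e-25) and 2.90 for VTRNA1-2 (SE 0.65, adjusted p = 0.000449). Again all 4 passed, where 2.82% rose and 4.43% changed. VTRNA1-1 had the highest fold change of the 4 in both comparisons.

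The slowest pellet had the lowest fold changes over the cells for each of the 4 RNAs. In EV 2.8K against cells, RNY1 rose by a log2 fold change of 1.88 (SE 0.50, adjusted p = 0.0106) and VTRNA1-1 by 3.28 (SE 0.52, adjusted p = 1.55e-07). RNY3 at 1.95 (SE 0.74, adjusted p = 0.196) and VTRNA1-2 at 1.02 (SE 0.58, adjusted p = 0.664) did not pass. So 2 of 4 rose, where 1.54% of all genes rose and 2.23% changed. The lowest EV 2.8K value of VTRNA1-2, 6.34 CPM in replicate 1, was next to the 6.05 CPM of the cells, and without TMM scaling it was below them, at 5.59 against 7.27 counts per 1000000.

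The p-values against cells depended on the estimate of spread. In the fit of all 10 libraries the prior degrees of freedom were infinite, so that genes shared 1 trend of spread, and the SE of VTRNA1-1 was 0.62 in EV 100K against cells, beside 2.17 without EV 100K replicate 1. The VTRNA1-1 calls were lost without EV 2.8K replicate 2, without EV 10K replicate 2 or 3 and without any of the EV 100K replicates, with adjusted p from 0.545 to 0.786 in EV 2.8K, 0.0937 to 0.309 in EV 10K and 0.0545 to 0.218 in EV 100K against cells. Without a filter on low counts they were also lost (adjusted p = 0.704 for EV 2.8K, 0.267 for EV 10K and 0.160 for EV 100K), as was that in EV 2.8K with DESeq2 (0.108). Its log2 fold change lay between 6.46 and 6.94 in EV 100K and between 5.44 and 7.34 in EV 10K against cells. RNY1 and RNY3 kept their calls in EV 100K and EV 10K against cells under all 13 alternatives, with adjusted p up to 0.0465.

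For VTRNA1-2, the call in EV 10K against cells was lost without EV 10K replicate 1 (log2 fold change 2.14, adjusted p = 0.0845) or 2 (2.96, adjusted p = 0.283), and that in EV 100K against cells without EV 10K replicate 2 (3.33, adjusted p = 0.0995). The RNY1 call in EV 2.8K against cells was lost without EV 2.8K replicate 2 (adjusted p = 0.582) or EV 10K replicate 2 (0.428), and with DESeq2 (0.0689).

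The make-up of the counts also differed between groups. RNY1 took 47.5, 53.3 and 39.9% of the RNY1 and RNY3 counts in EV 2.8K, 75.7, 54.7 and 69.9% in EV 10K and 80.4, 75.1 and 78.9% in EV 100K, against 47.2% in the cells (95% Wilson interval 40.6 to 53.9%). The EV 100K libraries lay above all EV 2.8K libraries and above the cell interval, and the EV 2.8K libraries lay around the cell value. VTRNA1-1 took 73.8, 31.7 and 36.3% of the VTRNA1-1 and VTRNA1-2 counts in EV 2.8K, 78.6, 61.3 and 73.0% in EV 10K and 59.4, 74.1 and 64.7% in EV 100K, against 15.7% in the cells (95% Wilson interval 11.7 to 20.8%). Here every EV library was above the cell interval, and EV 2.8K replicate 1 was among the EV 10K and EV 100K values while the other EV 2.8K libraries were below them. Both counts of a share come from the same library, and the shares were not tested.

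**Figure D3:**
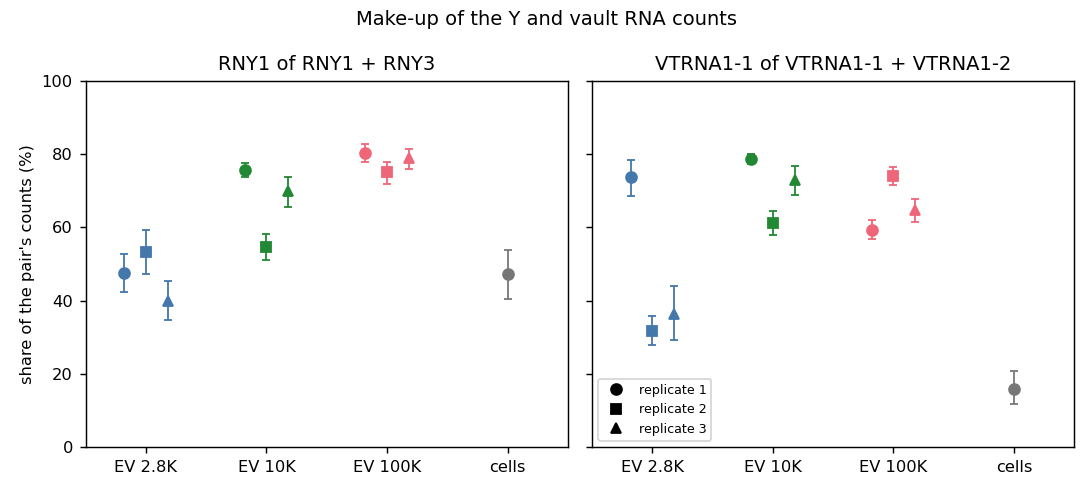
Share of RNY1 in the summed counts of RNY1 and RNY3 (left) and of VTRNA1-1 in those of VTRNA1-1 and VTRNA1-2 (right), in percent, in every library, with 95% Wilson intervals for counting error. The RNY1 share is 75.1 to 80.4% in EV 100K and 47.2% in the cells, and the cell library is lowest for the vault pair, at 15.7%.

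Summed, the copies of Y RNA in the genome had another pattern than RNY1 and RNY3, being about as frequent in the cells as in the fastest pellet. Unnamed entries made up most of the sum, with 740 counts in the cells, and the kinds of copy differed. In EV 100K and the cells, RNY3 pseudogenes had 50, 32 and 60 against 27 counts, RNY4 pseudogenes 2, 0 and 3 against 6. RNY1 pseudogenes had 0 in each EV 100K library and 19 in the cells. The table held 811 such entries (pseudogenes of RNY1, RNY3 and RNY4, and unnamed Y RNA entries), of which 112 had a count in any library. Summed over them, the counts were 90, 299 and 167 in EV 2.8K, 379, 123 and 102 in EV 10K, 187, 125 and 155 in EV 100K and 792 in the cells. RNY1 and RNY3 together had 3.83, 0.873 and 1.90 times the summed count of these entries in EV 2.8K, 5.71, 6.20 and 4.73 times in EV 10K and 5.65, 6.16 and 5.22 times in EV 100K, against 0.268 times in the cells. The entries are not copies of RNY1 and RNY3 alone, since RNY4 pseudogenes and unnamed entries, whose parent gene was not determined, are among them. RNY4, at 0 in every library, and RNY5, not analysed, add nothing to the genes' side. Of the counts of RNY1, RNY3 and these entries, most in the faster pellets fell on RNY1 and RNY3, and most in the cells on the entries. Per 1000000 of all counts, the copies were at 23.0 to 23.4 in EV 100K and at 27.6 in the cells, whereas RNY1 and RNY3 were at 122 to 142 in EV 100K and at 7.38 in the cells.

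The single copy with the largest total, an unnamed Y RNA entry, had 0, 40 and 5 counts in EV 2.8K, 104, 23 and 21 in EV 10K, 25, 23 and 20 in EV 100K and 11 in the cells. The pseudogene RNY3P1 had 5, 4 and 5 counts in EV 2.8K, 49, 23 and 17 in EV 10K, 12, 13 and 12 in EV 100K and 9 in the cells. RNY3P16 had 0, 7 and 0 counts in EV 2.8K, 13, 20 and 0 in EV 10K, 38, 19 and 48 in EV 100K and 0 in the cells. RNY3P16 had its highest counts in EV 100K replicates 1 and 3, and the other 2 entries were highest in EV 10K replicate 1. Over all related entries, which include copies of vault, RMRP and RPPH1 RNA, 113 of 820 had a count.

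**Figure D4:**
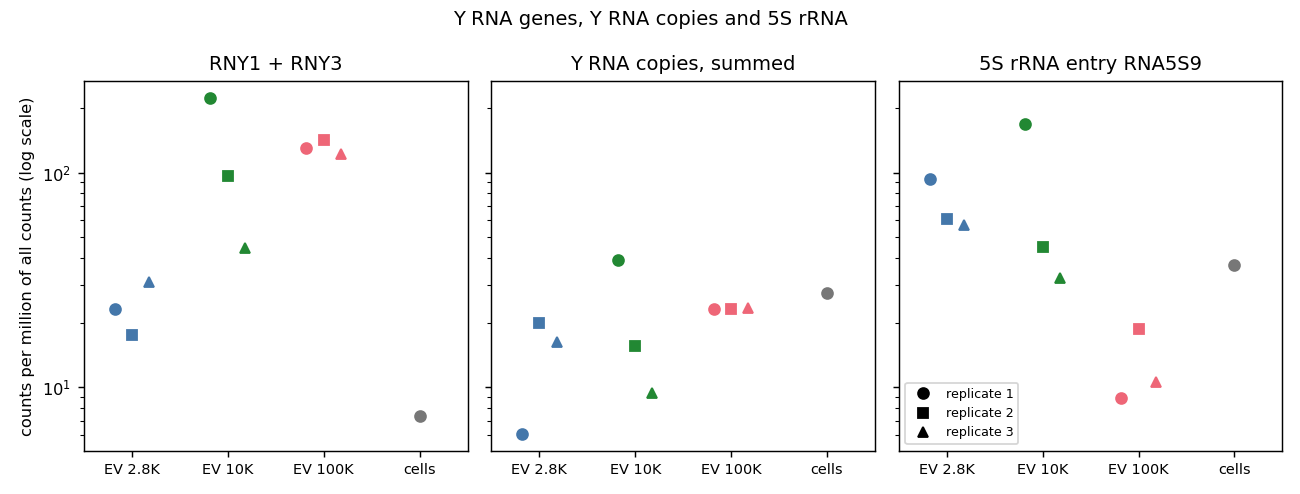
Summed RNY1 and RNY3 (left), summed Y RNA copies (middle) and the 5S ribosomal RNA entry RNA5S9 (right) in every library, per 1000000 of all counts on log axes. The copies are at 23.0 to 23.4 in EV 100K and 27.6 in the cells, while RNA5S9 is lowest in EV 100K, at 8.91 to 18.6.

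Other RNAs made by RNA polymerase III did not all move the same way. Of 13 with a row, 6 passed the filter on low counts, and in EV 100K against EV 2.8K 3 of these rose, 1 fell and 2 did not pass, where 12.0% of all genes rose and 13.8% fell. Their median log2 fold change was 2.48, beside -0.064 over all genes. RNU6ATAC, a small nuclear RNA of the minor spliceosome, had 340, 281 and 299 counts in EV 100K, against 107, 35 and 107 in EV 2.8K, and rose by 2.90 on the log2 scale (SE 0.49, edgeR adjusted p = 0.000223). RNU6-8, a copy of the U6 spliceosomal RNA, rose by 2.14 (SE 0.49, adjusted p = 0.00326), and RNU6-1, named after its values were seen, was the third that rose (14, 21 and 18 counts in EV 100K, against 0 in each EV 2.8K library, adjusted p = 0.0381). RNA5S9, an entry for the 5S RNA of the large ribosomal subunit, fell. It had 72, 101 and 70 counts in EV 100K, against 1384, 913 and 586 in EV 2.8K (log2 fold change -2.42, SE 0.56, adjusted p = 0.00455), and 1632, 359 and 350 in EV 10K (EV 100K over EV 10K -2.72, SE 0.57, adjusted p = 0.00557). The 5S and U6 entries belong to multigene families, so their counts are uncertain in the same way as those of the Y RNAs. In EV 10K against EV 2.8K, RNU6ATAC rose (2.39, SE 0.48, adjusted p = 0.00507) and the other 5 did not pass, and in EV 100K against EV 10K only RNA5S9 of the 6 passed.

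The mRNAs of proteins that bind Y RNAs were mostly lower or not called in the fastest pellet. Of 10 tested, 4 fell and 6 did not pass in EV 100K against EV 2.8K, where 13.8% of all genes tested fell, and the median log2 fold change was -0.65. PUF60, a splicing factor that binds Y RNA, was at 98.8 ± 19.6 CPM in EV 100K and 405 ± 114 CPM in EV 2.8K (SD, n = 3 each), and its log2 fold change was -2.04 (SE 0.24, adjusted p = 6.56e-06). PTBP1 (-1.09, adjusted p = 0.00262) and HNRNPK (-0.79, adjusted p = 0.00536), RNA-binding proteins of splicing, fell as well, and the fourth, named after its values were seen, was YBX1 (-0.59, adjusted p = 0.0270). The La mRNA SSB was at -0.71 and did not pass (adjusted p = 0.145). In EV 100K against EV 10K, 4 fell, 1 rose and 5 did not pass, where 7.23% of all genes fell and 3.70% rose. PUF60, YBX1, HNRNPK and PTBP1 were those that fell. The 1 that rose, named after its values were seen, was TROVE2, the symbol of Ro60 in this annotation, at 60.2 ± 15.2 CPM in EV 100K and 26.2 ± 6.22 CPM in EV 10K (1.19, SE 0.35, adjusted p = 0.0361). In EV 10K against EV 2.8K 0 of the 10 passed with edgeR, and 2 had an unadjusted p under 0.05.

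Among 9 mRNAs of vault proteins and of proteins that bind or modify vault RNA, 3 fell and 6 did not pass in EV 100K against EV 2.8K, where 13.8% of all genes fell and 25.8% changed, and the median log2 fold change was -0.86. SQSTM1, which encodes p62, was at 171 ± 24.9 CPM in EV 100K and 1093 ± 182 CPM in EV 2.8K (log2 fold change -2.69, SE 0.21, adjusted p = 7.53e-08). SRSF2, a splicing factor that binds vault RNA, was at 16.8 ± 5.39 CPM in EV 100K and 111 ± 40.9 CPM in EV 2.8K (-2.73, SE 0.37, adjusted p = 2.31e-05), and NSUN2, the methyltransferase that modifies vault RNA, fell by 1.03 (SE 0.22, adjusted p = 0.00177). The mRNAs of the vault particle itself did not pass, with MVP at -0.26 (adjusted p = 0.787), TEP1 at -0.86 (0.370) and PARP4 at -0.65 (0.0553). MVP had 86, 82 and 129 counts in EV 100K, against 221, 316 and 241 in EV 2.8K, from libraries that were deeper. SQSTM1, NSUN2 and SRSF2 also fell in EV 100K against EV 10K, and SQSTM1 and SRSF2, 2 of the 9, in EV 10K against EV 2.8K, where 2.22% of all genes fell.

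The 11 mRNAs of RNase P and RNase MRP proteins mostly did not pass, and their median log2 fold change in EV 100K against EV 2.8K was -0.92. In EV 100K against EV 2.8K, POP1, the largest shared subunit, rose by a log2 fold change of 2.02 (SE 0.26, adjusted p = 1.53e-05), with 125 ± 7.62 CPM in EV 100K and 30.5 ± 9.20 CPM in EV 2.8K. RPP25 fell (-2.14, SE 0.75, adjusted p = 0.0434), and the other 9 did not pass, where 25.8% of all genes changed. POP1 also rose in EV 10K against EV 2.8K (1.52, SE 0.26, adjusted p = 0.00124), and in EV 100K against EV 10K POP4 alone of the 11 fell (-1.67, SE 0.50, adjusted p = 0.0375).

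Of 30 mRNAs of RNA polymerase III and its factors, 2 rose, 4 fell and 24 did not pass in EV 100K against EV 2.8K, where 12.0% of all genes rose and 13.8% fell, and the median log2 fold change was -0.36. GTF3C1, the largest subunit of the factor TFIIIC that reads the internal promoter of vault RNA genes, was at 42.6 ± 5.03 CPM in EV 100K and 221 ± 24.4 CPM in EV 2.8K (log2 fold change -2.38, SE 0.22, adjusted p = 3.96e-07). BDP1, a subunit of TFIIIB, rose by 2.43 (SE 0.25, adjusted p = 1.10e-06), with 2203 ± 645 CPM in EV 100K and 406 ± 78.0 CPM in EV 2.8K. SNAPC1, a subunit of the factor that binds the upstream promoter of Y RNA and U6 genes, fell (-2.28, SE 0.31, adjusted p = 2.61e-05). The others that passed, named after their values were seen, were CRCP, a polymerase subunit, which rose (1.22), and MAF1, a repressor of the polymerase (-1.03), and GTF3C3 of TFIIIC (-1.44), which fell. The same 3 genes passed in the same directions in EV 10K against EV 2.8K, at -1.23, 1.58 and -1.20 for GTF3C1, BDP1 and SNAPC1. In EV 100K against EV 10K, 4 fell, 2 rose and 24 did not pass, where 7.23% of all genes fell and 3.70% rose. GTF3C1 (-1.16, SE 0.21, adjusted p = 0.00162), MAF1 (-0.89, SE 0.18, adjusted p = 0.00266) and GTF3A, the factor TFIIIA of 5S RNA genes (-0.81, SE 0.21, adjusted p = 0.0181), had the smallest p. The other 3, named after their values were seen, were SNAPC1 (-1.08), which fell, and BDP1 (0.85) and the transcription factor POU2F1 (1.54), which rose.

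The members of these lists that passed against the cells are named after their values were seen. In EV 100K against cells, 3 of 10 Y RNA proteins, 4 of 9 vault proteins, 0 of 11 RNase P and RNase MRP proteins, 6 of 30 genes of the polymerase machinery and 2 of 6 other polymerase III RNAs passed with edgeR, where 10.0% of all genes did. Of the 10 Y RNA proteins, PTBP1 (log2 fold change -2.09) and PUF60 (-1.90) fell and the nucleolin mRNA NCL rose (0.98) in EV 100K against cells, where 5.46% of all genes fell. In EV 10K against cells PTBP1 fell (-1.26) and NCL rose (1.06), where 1.60% of all genes fell. Of the 9 vault proteins, SRSF2 (-1.82), PARP4 (-1.59), NSUN2 (-1.53) and SQSTM1 (-1.07) fell in EV 100K against cells, and PARP4 (-1.19) fell in EV 10K. SQSTM1 rose in EV 2.8K against cells (1.60, adjusted p = 0.000303), the other direction than in EV 100K.

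Among the 11 RNase P and RNase MRP proteins, POP1 fell in EV 2.8K against cells (log2 fold change -1.82, adjusted p = 0.000135), where 0.693% of all genes fell. In edgeR 0 of them passed in EV 100K and 0 in EV 10K against cells, with 1 and 0 at an unadjusted p under 0.05. Likewise 0 of the Y RNA proteins passed in EV 2.8K against cells, with 2 at an unadjusted p under 0.05. In the polymerase machinery, BDP1 rose against cells in all 3 pellets, by 1.87 in EV 2.8K, by 3.46 in EV 10K and by 4.32 in EV 100K. GTF3C6 also rose in EV 100K (1.78) and EV 10K (1.48), and POLR3D in EV 100K (1.55). GTF3C1 fell in EV 100K (-2.76) and EV 10K (-1.61), and SNAPC1 (-1.59) and GTF3C3 (-1.70) fell in EV 100K. Of the other polymerase III RNAs, RNU6ATAC, with 15 counts in the cells, rose by 3.87 in EV 2.8K, by 6.27 in EV 10K and by 6.80 in EV 100K against cells, and RNU6-8 rose in EV 100K (4.67) and EV 10K (3.81).

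Over the 9 EV libraries, the levels of the 4 RNAs went together to different degrees, as a description of libraries that share pellet and depth. Pearson's r of log2 CPM was 0.962 between RNY1 and VTRNA1-1 (Spearman's rho 0.967) and 0.736 between RNY3 and VTRNA1-2, the highest and the lowest of the 6 pairs. Like patterns were sought among 12131 of the genes tested, leaving out clone, LOC, LINC, pseudogene and catalogue names. Those most like RNY1 were PMS1 (r = 0.975), ZNF273 (0.974) and MIR4444-2 (0.972), and those most like VTRNA1-1 were NDUFC2 (0.981), PMS1 (0.967) and RNY1 itself (0.962). For RNY3 they were BBS5 (0.943), UBE2E3 (0.935) and PLSCR4 (0.919), and for VTRNA1-2 TMEM255B (0.980), TNS1 (0.975) and SMAGP (0.972). Several were near 0 in EV 2.8K, with ZNF273 at 0 CPM in each library. There BBS5 was at 0, 0 and 0.433 CPM, PLSCR4 at 0, 0 and 0.953 CPM and MIR4444-2 at 1.45, 0.483 and 0.953 CPM. Their r depends in part on the prior count of the log2 CPM. PMS1, a DNA mismatch repair gene, was at 39.7, 39.0 and 36.5 CPM in EV 100K, against 8.71, 8.99 and 6.24 CPM in EV 2.8K. In EV 10K it was at 48.3, 22.5 and 12.0 CPM, replicate 1 again being the highest and replicate 3 the lowest, and in the cells at 12.1 CPM.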

How the data were processed

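Counts per gene for 10 total RNA libraries were used as the authors deposited them: whole numbers, not normalized. Per the submitters' processing notes, reads were handled with bcl2fastq (2.19.1.403), cutadapt (version 2.7), STAR (release 2.6.1d) and, for counting, featureCounts (1.6.3), on GRCh38. Of 94946 entries, 45574 carry GENCODE release 29 identifiers, from which symbols, positions and sequences were taken. Members and gene lists were chosen with earlier results of these data known. All members are named, with up to 3 passing genes of smallest p for each list and comparison of pellets, the 3 related entries of largest total and the 3 genes of highest Pearson r. The last were taken from the genes tested without clone, LOC, LINC, pseudogene and catalogue names.

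Models were fitted in R 4.3.3 with edgeR 4.0.16 after filterByExpr (minimum count 10) and TMM scaling, by robust quasi-likelihood F-tests without a term for set number, with Benjamini-Hochberg adjustment over all genes tested. The 9 EV libraries were fitted alone for pellets (6 residual degrees of freedom, median prior over genes 11.7), and all 10 for the cells, where the median prior over genes was infinite. Alternatives were DESeq2 1.42.0, other scaling, no filter, other sets of libraries and a term for the set number. Log2 CPM for correlations had a prior count of 2. Scripts were tested on simulated counts. Intervals used scipy 1.17.1.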

Additional observations from a re-analysis of the deposited data

How the results depend on the processing

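Over the alternatives tried, 328 of 408 results for the 4 RNAs kept their direction and their side of the threshold, 56 lost a call, 18 gained one and 6 changed sign. All 6 sign changes were in EV 100K against EV 10K, where no RNA was called as reported. With single libraries left out, the log2 fold change ran from -0.12 to 1.37 for RNY1, from -0.75 to 0.093 for RNY3, from -0.59 to 1.31 for VTRNA1-1 and from -0.021 to 1.19 for VTRNA1-2. RNY3 (0.093) and VTRNA1-1 (1.31) turned without EV 10K replicate 1, RNY1 (-0.12) and VTRNA1-2 (-0.021) without EV 10K replicate 3, and VTRNA1-1 (0.062) without EV 100K replicate 3.

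In EV 10K against EV 2.8K, 4 RNAs passed with all 10 libraries in the fit and 4 with DESeq2, beside 2 as reported. In EV 2.8K against cells, 1 passed without a filter on low counts and 0 with DESeq2, beside 2. With single libraries left out, the number that passed was 1 to 4 in EV 10K against EV 2.8K, 2 to 4 in EV 100K against EV 2.8K, 0 to 1 in EV 100K against EV 10K and 1 to 4 in the joint test. It was 0 to 2 in EV 2.8K, 2 to 4 in EV 10K and 2 to 4 in EV 100K against cells. The cause was not tested.

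Deviations from the pellet mean correlated at -0.00907 to 0.0481 over the 9 pairs of same-numbered libraries of different pellets. Over the 18 pairs with other numbers they correlated at -0.0363 to 0.0299. Such weak correlations cannot decide whether a set is 1 preparation. The set numbers were not taken as pairs, since the labels do not say that a set number marks a shared culture. With the set number as a replicate block, 2, 3 and 0 RNAs passed in EV 10K against EV 2.8K, EV 100K against EV 2.8K and EV 100K against EV 10K, and 3 in the joint test, where RNY3 was at an adjusted p of 0.0793. The log2 fold change of VTRNA1-1 in EV 100K against EV 10K was 0.46 with the block. Counts of 39 to 2687 per library, 3 libraries a pellet and 1 of cells limit the precision. Shares of all genes called moved too, between 3.30 and 10.5% in EV 10K against EV 2.8K (6.38% as reported) and 13.6 and 29.6% in EV 100K against EV 2.8K (25.8%), and down to 5.72% and up to 20% in EV 100K against EV 10K (10.9%).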
